A study of Triticum aestivum with 8 samples.

Results

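Crown and leaf of a synthetic hexaploid wheat line were each compared between 4 °C and 24 °C, and the crown response was then set against the leaf response. The quantity described throughout is the crown change minus the leaf change, each taken as 4 °C minus 24 °C on the log2 scale. It is called the response difference here: a positive value means that the change in the cold was higher in crown, and a negative value that it was higher in leaf. The array carries 37826 probes other than controls. Of these, the 24596 probes that the scanner software counted as well above background on all 8 arrays were kept, 65.0% of the total.

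The 8 arrays form 4 groups of 2. For crown at 4 °C, plants had 3 weeks at 24 °C followed by 6 weeks of cold, and crown at 24 °C was taken after the 3 warm weeks alone. For leaf at 4 °C the 3 warm weeks were followed by 12 weeks of cold, and leaf at 24 °C was taken from seedlings of 3 weeks. The labels name the crown samples as shoots with the shoot apical meristem and the leaf samples as first leaf, name no further genotype, and give all groups the same hexaploid wheat. Total RNA was labelled with Cy3 and hybridised to 1-colour Agilent oligonucleotide arrays. With 2 arrays a group, the number of arrays limits the precision of every value. The labels speak of separate experiments without saying whether plants were pooled, so that the p-values cover no more than the spread of these arrays, which may be technical.

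Synthetic hexaploid wheat is made by crossing a tetraploid wheat with the wild grass that gave bread wheat its D genome, which rebuilds the hexaploid genome. In winter cereals weeks of low temperature bring on cold acclimation, in which sugars and protective proteins build up and membranes change, and in lines that need it also vernalization, which allows flowering. The crown, at the base of the shoot, holds the growing point from which the plant regrows after winter, so that its survival is widely used as a measure of winter hardiness. The leaf is the photosynthetic organ, and existing leaves may be damaged or lost over winter while the crown lives on.

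Most probes are named by an assembled contig or a cDNA clone, and the tables used here pair none of these names with a gene. Probes are therefore named as the files name them, and no function is given for them. The tissues could not be checked against marker genes for the same reason. The free-text description of the crown samples at 24 °C speaks of leaves, whereas their title, source name and tissue entry say crown. Over the 24596 probes these 2 arrays correlated with the crown arrays at 4 °C at a Pearson r of 0.872 to 0.877 and with the leaf arrays at 24 °C at 0.65 to 0.654. Between 72.1% and 85.6% of probes were well above background on an array. The lowest such signals, relative to the array's 75th percentile on the log2 scale, were -8.47 and -8.38 for crown at 4 °C against -6.09 and -6.08 for crown at 24 °C. For leaf they were -7.89 and -8.19 at 4 °C against -6.35 and -6.04 at 24 °C. Lower signals could thus be read at 4 °C than at 24 °C in both tissues. No group shares its scan day or slide with another, so that group, scan day and slide cannot be told apart. The leaf arrays at 24 °C alone were read on a second scanner. The plants at 4 °C were also older than those at 24 °C by the 6 or 12 weeks of cold, so that cold and plant age cannot be told apart. Tissue and weeks at 4 °C differ together as well, and their parts in the response difference cannot be told apart either. In such bulk samples a smaller number of cells of a type and less RNA per cell cannot be told apart.

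The cold response differed between crown and leaf for 10238 of the 24596 probes, or 41.6%. The change was higher in crown for 6296 probes and higher in leaf for 3942 (limma, Benjamini-Hochberg adjusted p below 0.05 and a response difference of at least 2-fold). Over all 32796 probes tested, which include those at background in some groups, 45.8% were called, 29.3% with the higher change in crown and 16.4% with the higher change in leaf. The shares among the probes measured on all 8 arrays were 25.6% and 16%, close to that background in leaf and somewhat below it in crown. The response difference had a median of 0.23 over the 24596 probes, with the middle 50% of values between -0.58 and 1.05 and a median standard error of 0.11. Among called probes the median size of the difference was 1.71 on the log2 scale.

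The prevailing direction followed the scaling of the arrays. Calls with the higher change in crown made up 61.5% of calls after scaling to the 75th percentile and 58.2% on the values of the authors' deposited table. They made up 55.5% after cyclic loess, 52.9% after quantile normalization, 45.1% after scaling to the median and 82.7% after scaling to 7 spike-in controls. The median response difference of all 24596 probes moved with it, between -0.10 with the median scaling and 0.83 with the spike-ins. No prevailing direction is therefore reported. Centring the response differences on their own median of 0.23, which by construction puts as many probes on either side, gave 5036 calls higher in crown and 5009 higher in leaf. For single probes, 5232 of the 10238 calls, or 51.1%, were made in the same direction under each of 7 other scalings and background corrections, 3169 higher in crown and 2063 higher in leaf. The spike-ins themselves, relative to the 75th percentile, had a median response difference of -0.52.

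The spread between the arrays of a group was small beside these differences. Except for leaf at 24 °C, both arrays of a group lay on the same slide, and no slide held arrays of more than 1 group. In the groups with a shared slide the spread takes in no difference between slides, whereas comparisons between groups do. The median difference between the 2 readings of a probe in a group, over the 24596 probes, was 0.059 (crown at 4 °C), 0.068 (crown at 24 °C), 0.076 (leaf at 4 °C) and 0.086 (leaf at 24 °C) on the log2 scale. When 1 array was taken from each group in the least favourable way, 4970 of the 6296 probes and 3324 of the 3942 still differed by at least 2-fold, together 81% of the calls. That most did so follows largely from how they were called, on these same arrays. A further 8661 probes passed the adjusted p with a difference under 2-fold, and 173 differed by at least 2-fold without passing it. The 2-fold limit parts probes with nearly equal values: the nearest inside were whyf14p22, with a response difference of -1.0001, and wheat0130Contig2013 at 1.0001, and the nearest outside was whfl_allContig1646 at 0.9999. For 10234 probes, 41.6% of the total, the 95% confidence interval of the response difference lay wholly within 2-fold in both directions, so that a response difference of 2-fold or more lay outside the interval. The remaining 4124 probes were neither called nor shown to be alike.

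The called probes fell into 9 patterns by the calls of the separate responses. Over all 32796 probes tested, 36.8% were called in crown, 20% as rises and 16.8% as falls, and 36.8% in leaf, 11.6% as rises and 25.1% as falls. A fall in leaf without a called change in crown was found for 2079 probes, and a rise in crown without a called change in leaf for 1955. The order of these numbers depended on the scaling: they were 1368 and 2000 after quantile normalization, 1690 and 1744 after cyclic loess, 1890 and 1890 on the authors' deposited table and 1415 and 6597 with the spike-ins. A fall in crown without a called change in leaf was found for 1523 probes (1876 with the median scaling, above both of the others), and a rise in leaf without a called change in crown for 1028. Among the 15006 calls over all 32796 probes tested, these patterns held 3310, 2801, 1909 and 1423 probes, in the order named. These 4 patterns say that 1 response passed its limits and the other did not; that the responses differed rests on the test of the response difference. Opposite responses, called in both tissues, were found for 1084 probes or 10.6% of the calls. Of these, 759 had a rise in crown and a fall in leaf, and 325 a fall in crown and a rise in leaf. The same pattern was called under every other scaling and background correction for 243 of the 759 and 92 of the 325. Counted over all 32796 probes tested, the numbers were 1577 and 570. Of the 759, the median change was 1.68 in crown and -1.64 in leaf, and of the 325 it was -1.91 in crown and 1.67 in leaf. For 1850 probes (2144 when all probes tested were counted) neither response was called while their difference was. Among the 1181 of these with the higher change in crown the median change was 0.69 in crown and -0.64 in leaf, and among the other 669 it was -0.64 in crown and 0.67 in leaf.

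Of 2132 probes whose responses were called in the same direction in both tissues, 1413 had no called response difference, 518 of them raised and 895 lowered at 4 °C. The other 719 changed by different amounts, 139 raised and 580 lowered. Among the 580, the fall was larger in crown for 316 probes, with median changes of -4.18 in crown and -1.66 in leaf, and larger in leaf for 264 probes, with -1.39 in crown and -3.09 in leaf. With the spike-in scaling only 230 probes were lower in both tissues with a called response difference and 706 were higher in both.

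In most of the large response differences 1 of the tissues fell in the cold, among probes well above background on every array. That filter left out more probes too low to read only at 24 °C than only at 4 °C. Not read on the arrays of 1 group alone were 1091 probes for crown and 889 for leaf at 24 °C. At 4 °C these numbers were 32 for crown and 152 for leaf. How far the filter made falls more frequent than rises was not tested. At least 16-fold differences were called for 353 probes with the higher change in crown and 405 with the higher change in leaf. Of the 353, 92.9% fell in leaf and 78.2% also rose in crown. Of the 405, 87.7% fell in crown and 37.8% also rose in leaf, while 148 had no called change in leaf. The median levels of the 405 probes were -2.97 in crown at 4 °C against 1.57 in crown at 24 °C, and -0.52 in leaf at 4 °C against -2.00 in leaf at 24 °C. The median levels of the 353 probes were 0.42 in crown at 4 °C against -2.22 in crown at 24 °C, and -0.78 in leaf at 4 °C against 2.08 in leaf at 24 °C. At 64-fold and above the numbers were 50 with the higher change in crown and 120 with the higher change in leaf. The larger number of probes with the higher change in leaf at 16-fold and above was found under 6 of 7 other scalings and background corrections, whereas the spike-in scaling gave 611 in crown and 272 in leaf (96 and 92 at 64-fold). It was turned round as well, to 846 and 737, when all 32796 tested probes were counted. With all signals raised to a common floor of -6.04, the highest of the arrays' lowest readable signals, the numbers were 338 and 392.

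The 10 probes with the largest response difference in favour of leaf were led by wheat0130Contig8165. Its levels were -6.58 and -6.41 in crown at 4 °C against 5.99 and 5.97 in crown at 24 °C, and -3.02 and -2.99 in leaf at 4 °C against -2.69 and -2.66 in leaf at 24 °C. The crown at 24 °C was far above the 3 other groups, and the crown at 4 °C below both leaf groups, with no overlap of arrays. Both crown readings at 4 °C lay below the lowest readable signal of any array at 24 °C. The response difference was -12.15 ± 0.10 (log2, standard error, 2 arrays a group; limma, Benjamini-Hochberg adjusted p = 3.42e-07), or 4534-fold. Its size depended on the background correction, with -9.28 after normexp with quantile normalization. The next contig by number, wheat0130Contig8164, was among the 10 as well, at -9.60 ± 0.13, and fell in both tissues, with changes of -10.79 in crown and -1.18 in leaf.

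wheat0130Contig5620 had levels of -4.41 and -4.15 in crown at 4 °C against 7.10 and 7.12 in crown at 24 °C, and -0.49 and -0.48 in leaf at 4 °C against -0.73 and -0.52 in leaf at 24 °C. It fell by 11.39 in crown, and in leaf the change of 0.14 was not called (limma, Benjamini-Hochberg adjusted p = 0.277), which made a response difference of -11.53 ± 0.16. The probe rwhr22g15 was alike in kind, with -5.86 and -6.24 in crown at 4 °C against 3.95 and 3.99 in crown at 24 °C, and -0.80 and -0.66 in leaf at 4 °C against -1.04 and -1.12 in leaf at 24 °C. Its leaf change of 0.35 was not called (limma, Benjamini-Hochberg adjusted p = 0.055).

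In the rest of the 10 the leaf rose while the crown fell. For MUGEST2003_23lib_Contig11385_595 the levels were -5.37 and -5.50 in crown at 4 °C against -1.19 and -1.17 in crown at 24 °C, and 3.12 and 3.15 in leaf at 4 °C against -3.47 and -3.11 in leaf at 24 °C. The tissue with the higher level thus changed from crown at 24 °C to leaf at 4 °C, and the response difference was -10.68 ± 0.18 (limma, Benjamini-Hochberg adjusted p = 7.75e-07). The probe ncbi_gi_32128602_671, named by a sequence number, behaved in the same way, with -5.90 and -5.95 in crown at 4 °C against -1.93 and -1.93 in crown at 24 °C, and a rise of 5.98 in leaf. Its arrays for leaf at 24 °C stood further apart (SD 0.41 around -4.29, n = 2), and the standard error of its response difference of -9.97 was 0.26. For wheat0130Contig12786 the levels were -4.76 and -4.79 in crown at 4 °C against 1.63 and 1.59 in crown at 24 °C, and 1.77 and 1.77 in leaf at 4 °C against -1.58 and -1.57 in leaf at 24 °C. Leaf in the cold thus reached about the level that crown had in the warmth, and crown in the cold lay below both leaf groups. In wheat0130Contig11239, rwhyf11o05 and MUGEST2003_23lib_Contig528_55 the fall in crown was the larger part, as it was in wheat0130Contig12786. The crown changes were -9.48 for wheat0130Contig11239 and -8.45 for MUGEST2003_23lib_Contig528_55, beside leaf rises of 1.65 and 1.47. In crown at 4 °C wheat0130Contig11239 read -7.63 and -7.68, below the lowest readable signal of any array at 24 °C. Its response difference of -11.14 became -7.23 after normexp with the 75th percentile.

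In favour of crown the largest response difference was that of MUGEST2003_23lib_Contig4236_327. Its levels were -2.46 and -2.46 in crown at 4 °C against -4.12 and -4.11 in crown at 24 °C, and -5.64 and -5.60 in leaf at 4 °C against 2.69 and 2.78 in leaf at 24 °C. The leaf at 24 °C was the highest group and the leaf at 4 °C the lowest, and the crown groups lay between them. The response difference of 10.01 ± 0.08 (limma, Benjamini-Hochberg adjusted p = 3.42e-07), or 1034-fold, was made of a crown change of 1.66 and a leaf change of -8.35. After normexp with quantile normalization it was 7.26.

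The other 9 differed in where the difference arose. wheat0130Contig16112 had levels of 5.69 and 5.71 in crown at 4 °C against 3.69 and 3.69 in crown at 24 °C, and -5.67 and -5.73 in leaf at 4 °C against 1.46 and 1.14 in leaf at 24 °C. It was higher in crown at both temperatures, by 11.40 at 4 °C and by 2.39 at 24 °C, so that the tissues moved apart in the cold. For whsh_allContig460 the tissues were within 2-fold of each other at 24 °C, with a crown minus leaf value of 0.40, and 8.85 apart at 4 °C. This came from a leaf change of -8.12, with a crown change of 0.32 that stayed under 2-fold. Its leaf arrays at 4 °C read -6.74 and -6.85, below the lowest readable signal of any array at 24 °C.

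In others the tissues drew closer. wheat0130Contig14378 had crown minus leaf values of -2.60 at 4 °C and -11.29 at 24 °C. Its levels were -1.54 and -1.61 in crown at 4 °C against -4.57 and -4.75 in crown at 24 °C, and 1.00 and 1.05 in leaf at 4 °C against 6.63 and 6.63 in leaf at 24 °C. For wheat0130Contig6740, MUGEST2003_23lib_Contig25625_1134 and whsh_allContig590 the crown minus leaf value was 0.10, 0.14 and 0.30 at 4 °C, and between -8.29 and -8.00 at 24 °C, so that the tissues were within 2-fold of each other at 4 °C. whsh_allContig745 was close to these, at -0.89 at 4 °C and -8.96 at 24 °C. MUGEST2003_23lib_Contig25625_1134 reached this mostly through crown, which rose by 6.45, with levels of 1.27 and 1.40 at 4 °C against -5.21 and -5.02 at 24 °C, while its leaf fell by 1.69. whsh_allContig1173 fell in both tissues, with changes of -2.71 in crown and -11.04 in leaf. The last of the 10, wheat0130Contig9299, had levels of 1.11 and 1.14 in crown at 4 °C against -2.64 and -2.67 in crown at 24 °C, and -1.57 and -1.68 in leaf at 4 °C against 3.45 and 3.38 in leaf at 24 °C. It was higher in leaf at 24 °C and higher in crown at 4 °C.

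Rises larger than in the other tissue marked a further set. wheat0130Contig15644 rose by 1.60 in crown and by 9.29 in leaf, with levels of 4.00 and 3.98 in crown at 4 °C and of 3.82 and 3.84 in leaf at 4 °C. The tissues, 7.85 apart at 24 °C, were 0.16 apart at 4 °C. whfl_allContig550 and wheat0130Contig14940 likewise rose in both, by 1.98 and 1.12 in crown and by 9.01 and 7.89 in leaf. Among probes that rose in crown without a called change in leaf, whsh_allContig956 had the largest response difference, 6.71 ± 0.25. Its levels were 4.14 and 4.12 in crown at 4 °C against -1.71 and -1.78 in crown at 24 °C, and -4.94 and -4.98 in leaf at 4 °C against -4.41 and -3.84 in leaf at 24 °C. wheat0130Contig12089 and rwhsh5i21 followed, with response differences of 5.24 and 5.11.

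Among probes that rose in leaf without a called change in crown, MUG005H12R990218 and wheat0130Contig3968 ran nearly in parallel. The first had levels of 6.51 and 6.49 in crown at 4 °C against 7.12 and 7.15 in crown at 24 °C, and of 2.14 and 2.10 in leaf at 4 °C against -5.60 and -5.22 in leaf at 24 °C. The response differences were -8.16 ± 0.18 and -8.07 ± 0.28. The leaf thus stayed below the crown at 4 °C, by 4.38 and 4.50, with a gap of 12.54 and 12.57 at 24 °C. wheat0130Contig5538 rose by 7.15 in leaf, with 4.43 and 4.46 at 4 °C against -2.66 and -2.76 at 24 °C, and passed the crown, above which it lay by 6.17 at 4 °C and below which by 1.84 at 24 °C. Among probes that fell in leaf alone, whsh5j02 fell by 7.46 there, with a crown change of -0.40 that stayed under 2-fold. wheat0130Contig6515 fell in both tissues, with changes of -9.76 in crown and -1.11 in leaf. The response difference of whsh_allContig849, 6.41 ± 1.63 (limma, Benjamini-Hochberg adjusted p = 0.014), rests in part on leaf arrays at 4 °C that read -3.31 and 0.53. Without the first of these arrays it was 4.50, and without the second 8.33. Its crown levels were 1.16 and 1.16 at 4 °C against -1.78 and -1.80 at 24 °C. This crown change of 2.95 was not called (limma, Benjamini-Hochberg adjusted p = 0.0601), with a standard error that takes in the spread of the leaf arrays.

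The same test can be read as a change of the tissue difference with temperature. Among called probes the crown minus leaf difference was larger in size by at least 2-fold at 4 °C for 4457 (43.5% of the calls) and smaller by as much for 3543 (34.6%). Counted over all probes tested, the numbers were 7164 and 5116 of 15006 calls. Over the 24596 probes the median size of the tissue difference was 1.11 at 4 °C and 0.97 at 24 °C. Where crown gained and the tissues moved apart (2783 probes), the median crown minus leaf value was 2.53 at 4 °C and 0.76 at 24 °C. Where leaf gained and the tissues moved apart (1674 probes), it was -2.54 at 4 °C and -0.47 at 24 °C. With the spike-in scaling the number of probes that moved apart was 8357. A tissue difference was called at 4 °C and not at 24 °C for 3190 of the called probes, 1900 of them higher in crown, and at 24 °C and not at 4 °C for 2320, of which 864 were higher in crown. Over all probes tested, a tissue difference was called for 58.1% at 4 °C, 34.5% higher in crown and 23.7% higher in leaf, and for 52.3% at 24 °C, 28% higher in crown and 24.4% higher in leaf.

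For 5.92% of the called probes the order of the tissues differed between the temperatures, with a called difference of at least 2-fold on each side. Leaf was higher at 24 °C and crown at 4 °C for 207 of them, with median crown minus leaf values of 1.60 at 4 °C and -1.77 at 24 °C. Crown was higher at 24 °C and leaf at 4 °C for the other 399, with median values of -1.83 at 4 °C and 1.95 at 24 °C. Counted over all probes tested, the numbers were 361 and 555 of 15006 calls, so that reversal was not particular to the probes measured on all arrays. The reversals came about differently: of the 207, 106 rose in crown and fell in leaf and 63 fell in leaf without a called change in crown, whereas of the 399, 197 fell in crown without a called change in leaf and 109 fell in crown and rose in leaf. The balance of 207 and 399 turned to 442 and 195 with the spike-in scaling. Under each of 7 other scalings and background corrections, 46 and 68 of these probes were called as reversed in the same way. whfl_allContig2020 and whfl_allContig910 are examples of the first kind: their crown minus leaf values were 2.42 and 2.69 at 4 °C and -5.01 and -4.42 at 24 °C. For whfl_allContig2020 the levels were 3.57 and 3.48 in crown at 4 °C against -1.47 and -1.43 in crown at 24 °C, and 1.15 and 1.06 in leaf at 4 °C against 3.57 and 3.54 in leaf at 24 °C. Crown in the cold and leaf in the warmth were at nearly the same level, and their arrays overlapped.

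In 2753 called probes, 26.9% of the calls, a single group stood apart, that is, it lay at least 2-fold beyond the 3 others, which were within 2-fold of one another. The group was crown at 4 °C for 710 of them, crown at 24 °C for 774, leaf at 4 °C for 901 and leaf at 24 °C for 368. Leaf at 4 °C was mostly the low group (646 low and 255 high), and crown at 24 °C too (502 low and 272 high). Low values in either group make the response difference positive, and the share of such calls moved with the scaling. These counts come from a single scaling, and their balance under the others was not tested. No share over all probes tested is set beside them, so that they describe the called probes alone. The rule for a group standing apart was chosen after the values were seen.

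Probes that share a name show how far the response differences of like-named probes went together. For 925 clones a probe carried the clone name and another the same name with a leading r. In 198 of these pairs both were called in the same direction, 127 higher in crown and 71 higher in leaf, and in 15 pairs they were called in opposite directions. In 369 pairs 1 probe was called and the other was not. The response differences of the pairs had a Pearson correlation of 0.564 and a Spearman correlation of 0.474 across these 925 pairs, which share a clone, the arrays and the scaling, and they differed by a median of 0.88. In 79 pairs the names of 1 contig or clone carried a p and an m mark, which the files do not explain. Both probes were called in the same direction in 21 pairs and in opposite directions in 5, with a Pearson r of 0.344.

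The share of calls also varied with the library or assembly in the probe name. Among families with at least 100 probes measured on all arrays, the whsh_all contigs had the largest share with the higher change in crown, 359 of 799 or 44.9%, against 25.6% of all 24596. A further 14.3% had the higher change in leaf, and their median response difference was 0.82. Under the 7 other scalings and background corrections this share was 38% to 58.6%, against 16.1% to 43.6% of all probes, and in each it was above that of all probes. What the library holds is not given in the tables used here. The MUGEST contigs stood at the low end with 20.7%, and 19.9% of them had the higher change in leaf, an order that turned round under 5 of the 7 other settings, to 16.4% and 23.3% after quantile normalization, 14.1% and 27.2% with the median scaling, 16.6% and 23.3% after cyclic loess, 19.2% and 21.3% on the authors' deposited table and 11.9% and 18.1% after normexp with quantile normalization. In the largest family, that of 10302 wheat contigs, 22.7% had the higher change in crown and 17.1% in leaf.

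The split between the directions moved with the brightness of the probes. Of the 6149 dimmest probes by mean level 34.5% were called with the higher change in crown and 13.5% with the higher change in leaf, and of the 6149 brightest 19.1% and 16.8%. The median standard error was 0.16 among the dimmest and 0.09 among the brightest. After quantile normalization the shares were 22.4% and 19.6% among the dimmest and 18.4% and 18% among the brightest, and after cyclic loess 21% and 20.7% against 23.4% and 13.8%. With the authors' deposited table they were 32.6% and 14.4% among the dimmest and 17.5% and 18% among the brightest.

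Of the 6 probes with a gene name, only RD29B, which in Arabidopsis responds to abscisic acid and water deficit, was well above background on all 8 arrays. Its levels were -5.40 and -5.42 in crown at 4 °C against -4.88 and -4.76 in crown at 24 °C, and -6.47 and -6.45 in leaf at 4 °C against -4.80 and -4.32 in leaf at 24 °C. Its response difference of 1.32 ± 0.22 (limma, Benjamini-Hochberg adjusted p = 0.00258) reached 2-fold in 20 of 26 alternatives and ranged from 0.28 to 1.92. Both leaf arrays at 4 °C read below -6.04, the highest of the arrays' lowest readable signals, so that the call of RD29B rests on weak signals. Wcor15, a wheat cold-responsive gene, was well above background on 4 arrays and is not among the 24596. RD29A, cor47, DREB2A and DREB2B were well above background on none. Of 91 probes named by a GI number and measured on all arrays, 28 had the higher change in crown and 18 the higher change in leaf. These shares, 30.8% and 19.8%, were near the 25.6% and 16% of all 24596 probes. Of 15 named by a sequence accession, 3 and 1 were called, too few to set against those shares.

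A further 8200 probes were tested without being well above background on all 8 arrays, 870 of the array's probes being so on exactly 7. Of the 8200, 3328 were called with the higher change in crown and 1440 with the higher change in leaf, but these values rest in part on signals at background. Probes not well above background on the arrays of 1 group alone numbered 32 for crown at 4 °C against 1091 for crown at 24 °C, and 152 for leaf at 4 °C against 889 for leaf at 24 °C.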

How the data were processed

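Per the file headers, the spot intensity values come from Agilent Feature Extraction software run by the authors, whose processed signal is already background-subtracted, and flags of 0 or 1 per spot and a spot class stand beside them. The submitters' processing notes name version 9.5. The headers name 10.5.1.1 for both groups at 4 °C, 10.7.3.1 for crown at 24 °C and 9.5.3.1 for leaf at 24 °C, so that the version changes with temperature in both tissues. The authors also deposited a table of scaled intensity, whose scaling factor is not given in the sources used here. Groups came from the sample titles. The processed signal was taken to log2 and reduced by each array's 75th percentile over 37826 non-control probes. With limma 3.58.1 (R 4.3.3), 1 mean per group was estimated from the 8 arrays (4 residual and 1.55 prior degrees of freedom) for the 32796 probes that some group measured above background on both its arrays, with Benjamini-Hochberg adjustment over them for each contrast. The 4 contrasts beside the response difference use the same arrays. Calls needed an adjusted p below 0.05 and at least 2-fold. An exact permutation test of 2 arrays against 2 cannot go below 0.333 and was not used. The fit was tested on simulated data. Probes were named by rule: the 10 largest response differences each way, the 3 largest per pattern, the 5 largest per kind of reversal, and the probes with a gene name. The probes, lists and rules were chosen with earlier results of these data known. Gene lists and tissue markers needed annotation and were not used here. Alternatives were other scalings, background corrections, filters, blocks, thresholds and left-out arrays, and, added after the data were seen, centring on the median response difference. Normexp used the median spot signal, since the files hold no mean. No probe sequence was used.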

Additional observations from a re-analysis of the deposited data

Results flagged for a closer look

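Crown and leaf responses to cold were set against each other in 1 limma contrast, which called the higher change in crown for 6296 probes and in leaf for 3942 of the 24596 measured on all 8 arrays. Groups of 2 arrays are too small for a test of single arrays as outliers. Tissue, weeks at 4 °C, scan day and slide cannot be told apart in this contrast.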

How the results depend on the processing

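Both the scaling and the 2-fold limit moved the counts. With the spike-ins, 10730 probes had the higher change in crown and 2250 in leaf. The patterns then held 6597 probes raised in crown alone, 697 lowered in crown alone, 1165 raised in crown and lowered in leaf, 706 raised in both, 230 lowered in both and 1180 with neither response called. Under it the tissue order was reversed for 442 (crown higher at 4 °C) and 195 (leaf higher at 4 °C), 8357 moved apart, and responses were alike for 5727. Quantile normalization left 1368 lowered in leaf alone. Median scaling gave 1652 raised in leaf alone and 492 lowered in crown and raised in leaf. Normexp with quantile normalization gave 3962 higher in crown. Counting more probes gave 9793 higher in crown with no filter and 9624 with detection in 1 group. Without the 2-fold limit there were 11021 and 7878, and the tissue order was reversed for 1702 (crown higher at 4 °C) and 1812 (leaf higher at 4 °C). The cause of the scaling differences was not tested. Leaving out 1 array at a time gave 6094 to 6414 higher in crown and 3891 to 3997 higher in leaf. With the replicate block there were 6290 and 3937. The arrays share only a number: the deviations of like-numbered arrays correlated at -0.0942 to 0.104 between groups. The 34 probes named for their size kept direction and call under all 26 alternatives each, though not their size. That they kept their calls follows largely from how they were chosen, as differences far above the 2-fold limit in these same arrays. RD29B, named whatever its value, lost its call in 6. Beside the number of arrays, the signal over background limits the results: among the 6149 dimmest probes the median standard error was 0.16, against 0.09 among the brightest.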
